A study of Mus musculus with 19 samples.

Results

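Axon guidance genes encode the ligands and receptors that steer growing axons and migrating cells, and 69 of the 22958 genes in the deposited expression table belong to this set. Members were taken by symbol: semaphorins of classes 3 to 7, plexins, neuropilins, Eph receptors and ephrins, Slits and their Robo receptors, netrins, the Unc5 receptors and Dcc. They comprise 35 ligands and 34 receptors. RNA was sequenced from glial cells (glia, 3 libraries) and from glial progenitor cells (GPC, 4 libraries), both derived from mouse embryonic stem cells, and chromatin immunoprecipitation (ChIP-seq) peaks of the transcription factors SOX9, SOX3 and NFIA came from GPC. By the protocol in the labels, stem cells were differentiated in a serum-free medium (N2B27) with 0.1 µM all-trans retinoic acid, sorted on day 8 with magnetic beads for the glial precursor antigen A2B5, and expanded on fibronectin with EGF and FGF2, each at 10 ng/ml. Both groups carry this same text, and whether glia stayed in these factors, how they were made, and the genotype and strain of the stem cells are not stated in the sources used here. Nothing in the labels says that numbered replicates were separate cultures, so each p-value rests on the spread between libraries, and that spread may be technical.

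Semaphorins signal through plexins, with neuropilins as co-receptors for most secreted class 3 members, and usually repel growth cones by acting on the cytoskeleton. Ephrins are held in the membrane, so they signal to Eph receptor tyrosine kinases on touching cells, and the ephrin-bearing cell can signal in return. Slits repel through Robo receptors, and netrins attract through Dcc or repel through Unc5 receptors. In glia the same families are known for guiding the migration of oligodendrocyte precursors and for placing astrocytes beside axons and vessels.

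The glia libraries held 17166532, 6897294 and 17369367 reads in genes and the GPC libraries 12836998, 13037426, 22439837 and 12927131, of which the members took 0.477% to 0.501% in glia and 0.389% to 0.398% in GPC. Marker lists were set against the labels. Of all 13588 genes tested, 35.2% rose in glia and 35.2% fell, by the calls defined below. All 10 listed genes of dividing cells fell in glia, while 10 of 12 astrocyte markers and 9 of 9 tested markers of maturing oligodendrocytes rose. Astrocyte markers summed to 8902 to 11054 RPKM (reads per kilobase of gene model, scaled to library size, as deposited) in glia and 997 to 1444 RPKM in GPC, and oligodendrocyte markers to 1708 to 2422 RPKM in glia and 104 to 128 RPKM in GPC. All 10 mesenchyme markers rose too, with sums of 727 to 895 RPKM in glia and 169.7 to 179.6 RPKM in GPC, as did 7 of 13 tested neuronal markers, with sums of 233 to 254 RPKM in glia and 147 to 163 RPKM in GPC and no read for Slc17a6 in either group. Endothelial markers summed to 2.50 to 3.80 RPKM in glia and 2.89 to 5.04 RPKM in GPC, with no read for Cldn5, and of 3 tested Kdr rose (log2 change 0.92) and 2 fell, with Emcn at 0.195 ± 0.0296 RPKM in glia and 1.76 ± 0.659 RPKM in GPC. Microglial markers summed to 7.85 to 8.84 RPKM in glia and 1.49 to 2.24 RPKM in GPC, nearly all of it from Tmem119, the 1 marker tested, which rose to 8.07 ± 0.642 RPKM in glia against 1.74 ± 0.357 RPKM in GPC, and Cx3cr1 and Tyrobp had no read. Other lists went both ways: 5 of 8 markers of oligodendrocyte precursors rose and 3 fell, as did 3 and 3 of 9 for neural progenitors, 3 and 1 of 6 tested for Schwann cells and neural crest, and 1 and 1 of 2 tested for pluripotent cells. In sum, oligodendrocyte precursor markers stood at 1062 to 1439 RPKM in glia and 1612 to 1775 RPKM in GPC. Neural progenitor markers stood at 3318 to 3371 RPKM in glia and 6976 to 7468 RPKM in GPC. Sums for Schwann cells and neural crest were 54.4 to 57.2 RPKM in glia and 44.5 to 48.1 RPKM in GPC. For pluripotent cells they were 3.80 to 6.65 RPKM in glia and 3.32 to 4.36 RPKM in GPC. In bulk RNA, fewer cells of a type and less RNA per cell cannot be told apart, and the part of these cell types in the results below was not tested.

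GPC replicate 3 stood apart from the other GPC libraries. Its counts differed from theirs by a chi-square of 25.8 to 29.9 per gene, against 2.05 to 3.59 among the other 3. Between glia libraries the value was 5.14 for replicates 1 and 2, 4.33 for 1 and 3, and 10.0 for 2 and 3. This value also grows with read depth where libraries truly differ, so pairs of unlike depth are not on one scale. GPC replicate 3 was the deepest library, and the part of depth in its values was not tested. For 34 of the 61 members tested (55.7%, and 46.7% of all genes tested) GPC replicate 3 lay outside the other 3 on the side of the glia. For 19 it lay on the far side, as it did for 3691 of all 13588 genes tested. Without it 36 members rose and 19 fell, and no called member's log2 change moved by more than 1.5 times.

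More axon guidance members were higher than lower in glia. Of the 61 with enough reads to test, 35 rose (57.4%; 35.2% of all 13588 genes tested rose), 18 fell (29.5%; 35.2% of all genes) and 8 did not pass; 70.4% of all genes passed in either direction. Calls are at 0.05, two-sided, with p-values of edgeR's quasi-likelihood F-test adjusted by Benjamini-Hochberg over all genes. Every adjusted p below is from that fit, or from the same fit with a library left out or another scaling where that is said. At least 2-fold higher were 18 members (16.5% of all genes), and at least 2-fold lower 5 (9.24% of all genes). The median log2 change, glia over GPC, was 0.50, against 0.00 over all genes tested. The libraries of the groups did not overlap for 35 members with glia above (36.9% of all genes) and 17 with glia below (32.1% of all genes). Ligands and receptors both leaned upward, with 20 of 33 ligands rising and 9 falling, and 15 of 28 receptors rising and 9 falling. Single families hold few tested genes, so the counts by family below are descriptive and were not tested against all genes. A level of at least 1 RPKM in every library was reached by 56 members in glia and 50 in GPC.

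**Figure D1:**
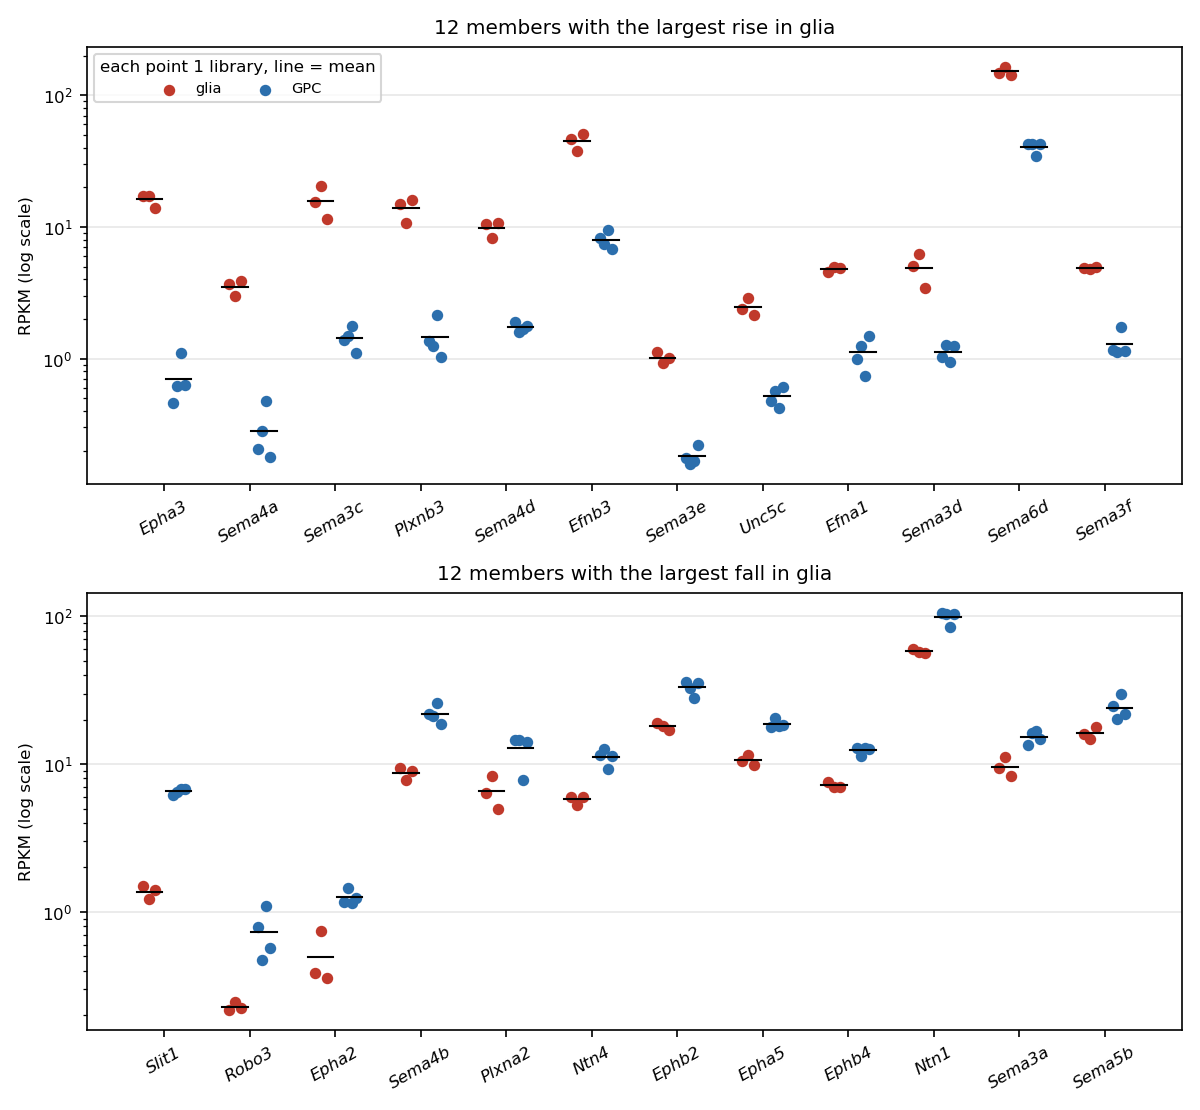
RPKM on a log axis for the 12 members with the largest rises (upper panel) and the 12 with the largest falls (lower panel), 1 point per library (3 glia, 4 GPC) with a line at the group mean. The groups are apart for all of these members except Plxna2, where GPC replicate 3 at 7.85 RPKM lay below the highest glia library at 8.33 RPKM.

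The order of levels was partly rearranged. In glia the highest members were Sema6d at 152 ± 11.6 RPKM (SD, n = 3), Plxnb2 at 62.0 ± 1.11, Ntn1 at 57.9 ± 1.93 and Plxnb1 at 57.7 ± 2.51, of which Ntn1 and Plxnb1 overlapped in range. In GPC they were Ntn1 at 99.6 ± 10.2 RPKM (SD, n = 4), Plxnb2 at 79.6 ± 4.35 and Sema6d at 40.7 ± 3.95, with Ntn1 and Plxnb2 overlapping, and from Sema6d through Ephb2, Plxnb1, Ephb3, Sema5b and Sema4b each range overlapped the next. Efnb3 ranked 5 in glia and 25 in GPC, Sema3c 14 and 46, and Epha3 13 and 56. Sema4b moved the other way, at 26 in glia and 8 in GPC.

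The secreted class 3 semaphorins, diffusible repellents, changed their leading member. Of 6 tested, 5 rose and 1 fell, beside 35.2% of all genes in each direction. The family summed to 38.5 ± 6.93 RPKM in glia and 20.6 ± 1.72 RPKM in GPC. Sema3c, which binds both neuropilins, had 15.6, 20.3 and 11.5 RPKM in the glia libraries, against 1.39, 1.47, 1.76 and 1.10 RPKM in the GPC libraries. It rose 10.5-fold, with every glia library above every GPC library (log2 change 3.39 ± 0.21 SE, edgeR adjusted p = 9.18e-07). Sema3a, the classic growth cone repellent that acts through neuropilin-1, had 9.38, 11.1 and 8.28 RPKM in glia, against 13.5, 16.2, 16.8 and 14.9 RPKM in GPC. It fell 1.62-fold and was lower in all glia libraries (log2 change -0.70 ± 0.12, edgeR adjusted p = 0.00038). Sema3c therefore held 40.5% of the family's summed RPKM in glia and 6.93% in GPC, while Sema3a held 25.0% in glia and 74.5% in GPC. Sema3c was the highest member in 3 of 3 glia libraries and Sema3a in 4 of 4 GPC libraries.

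Among the other class 3 members, Sema3d, which guides axons in zebrafish, had 5.01, 6.27 and 3.42 RPKM in glia, against 1.03, 1.28, 0.933 and 1.24 RPKM in GPC. Sema3f, a repellent that acts through neuropilin-2, had 4.91, 4.78 and 4.96 RPKM in glia, against 1.16, 1.11, 1.74 and 1.14 RPKM in GPC. Sema3e, which binds plexin-D1 without a neuropilin, had 1.12, 0.925 and 1.01 RPKM in glia, against 0.177, 0.157, 0.166 and 0.221 RPKM in GPC. In each of the 3 the glia libraries lay above all GPC libraries. Their log2 changes were 2.09 ± 0.20 for Sema3d, 1.86 ± 0.17 for Sema3f and 2.46 ± 0.18 for Sema3e (edgeR adjusted p = 8.06e-06, 3.74e-06 and 8.46e-07). Sema3b rose less, to 2.31 ± 0.172 RPKM in glia against 1.20 ± 0.132 RPKM in GPC. Sema3g had 8 reads in glia and 4 in GPC in all and was not tested. Sema3d, which rose, and Sema3a, which fell, have no other protein-coding gene between them in RefSeq's GRCm38.p6 annotation. Their promoters end at chr5:12383165 for Sema3d and chr5:13396783 for Sema3a, so the starts are not close together.

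Membrane-bound semaphorins, classes 4 to 7, summed to 264 ± 2.81 RPKM in glia and 146 ± 6.30 RPKM in GPC. Of 13 tested, 8 rose, 3 fell and 2 did not pass, beside 35.2% of all genes in each direction. Sema6d, a transmembrane ligand of plexin-A1, had 149, 164 and 142 RPKM in glia, against 42.5, 42.8, 34.7 and 42.6 RPKM in GPC. It rose 3.65-fold, well apart in every library (log2 change 1.87 ± 0.09, edgeR adjusted p = 4.9e-08), and held 57.4% of the summed RPKM of these classes in glia and 27.9% in GPC. Sema4d, a ligand of plexin-B1 found on oligodendrocytes, had 10.5, 8.22 and 10.6 RPKM in glia, against 1.88, 1.59, 1.67 and 1.78 RPKM in GPC. That is a rise of 5.58-fold without overlap (log2 change 2.48 ± 0.12, edgeR adjusted p = 5.1e-08). Sema4a, known from immune cells and the retina, had 3.70, 2.98 and 3.88 RPKM in glia, against 0.205, 0.279, 0.472 and 0.179 RPKM in GPC. Its 11.5-fold rise was the largest estimate among the semaphorins tested (log2 change 3.52 ± 0.26, edgeR adjusted p = 8.42e-07). Sema3c was close, and without glia replicate 3 it stood higher, at a log2 change of 3.58 against 3.45 for Sema4a.

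Falls in these classes were smaller. Sema4b, a transmembrane member, had 9.36, 7.76 and 9.05 RPKM in glia, against 21.8, 21.1, 26.0 and 18.8 RPKM in GPC. Sema5b, which carries thrombospondin repeats and repels retinal neurites, had 16.1, 14.7 and 17.7 RPKM in glia, against 24.7, 20.1, 29.9 and 21.7 RPKM in GPC. Both were lower in every glia library, with log2 changes of -1.35 ± 0.12 for Sema4b and -0.60 ± 0.14 for Sema5b (edgeR adjusted p = 4.1e-06 and 0.00316). Sema4c, a ligand of plexin-B2, fell less, at 8.58 ± 0.579 RPKM in glia and 11.8 ± 0.321 RPKM in GPC. The remaining risers were Sema4g, Sema6a, Sema6b, Sema6c and Sema7a, with log2 changes between 0.41 for Sema6a and 1.12 for Sema7a. The Sema4g call ended without GPC replicate 1 (edgeR adjusted p = 0.056), GPC replicate 4 (0.0524), glia replicate 2 (0.05001) or glia replicate 3 (0.0846). Sema5a and Sema4f did not pass, at log2 changes of 0.25 ± 0.14 and 0.37 ± 0.24, which were 0.12 for Sema5a without GPC replicate 3 and 0.18 for Sema4f without glia replicate 1.

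**Figure D2:**
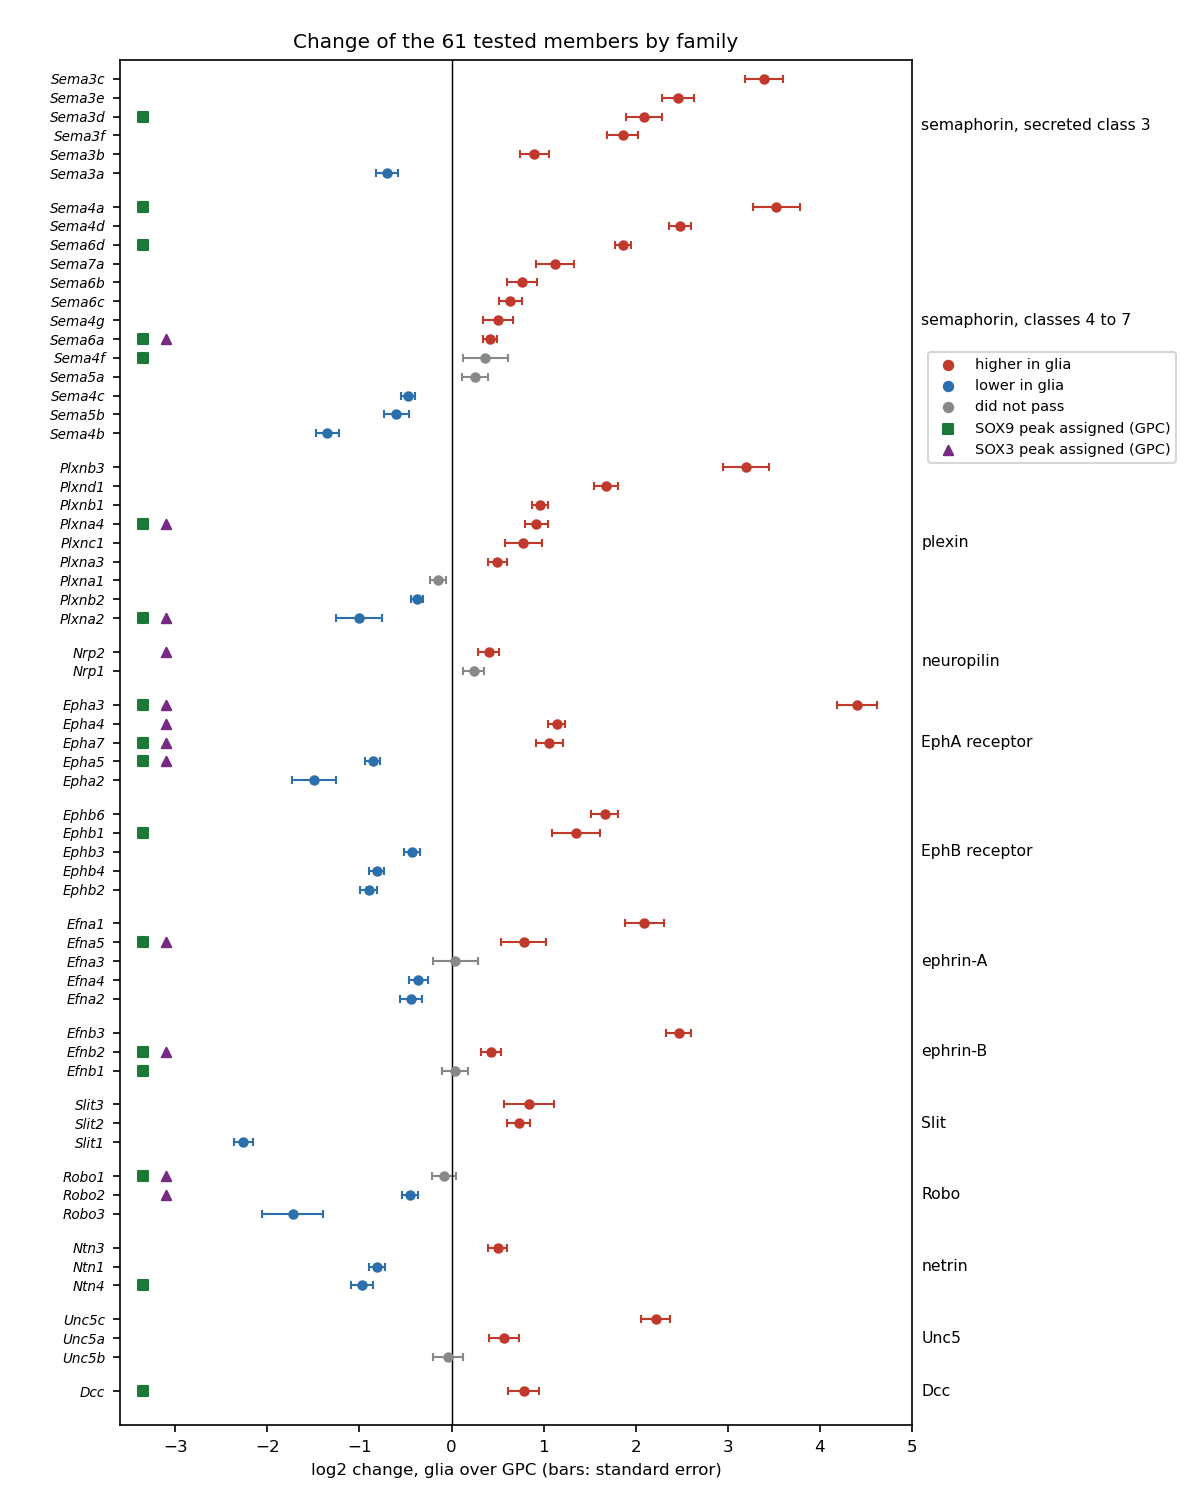
Log2 change (glia over GPC, horizontal axis) with its standard error for the 61 tested members, grouped by family down the page, in red where higher in glia, blue where lower and grey where the test was not passed. Squares and triangles at the left mark members with an assigned SOX9 or SOX3 peak in GPC; Epha3 has the largest change at 4.40 and Slit1 the lowest at -2.26.

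Plexins, the semaphorin receptors, rose in 6 of 9 cases and fell in 2, beside 35.2% of all genes in each direction. Plxnb3, a receptor for Sema5a known from oligodendrocytes, had 15.0, 10.7 and 16.0 RPKM in glia, against 1.35, 1.24, 2.16 and 1.03 RPKM in GPC. It rose 9.18-fold, with no overlap (log2 change 3.20 ± 0.25, edgeR adjusted p = 7.07e-06), and without GPC replicate 3 the log2 change was 3.51. Plxnb2, the receptor for Sema4c and the most abundant plexin in both groups, had 62.0, 63.1 and 60.9 RPKM in glia, against 84.5, 78.5, 74.2 and 81.2 RPKM in GPC. All glia libraries were lower, by a small margin (log2 change -0.38 ± 0.06, edgeR adjusted p = 0.000354). Plxnb1, the receptor for Sema4d, stood at 57.7 ± 2.51 RPKM in glia and 29.0 ± 2.78 RPKM in GPC (log2 change 0.96 ± 0.08), so that it came close to Plxnb2 in glia. Plxnb3 held 7.10% of the summed plexin RPKM in glia and 0.889% in GPC.

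Plxna2, a receptor for Sema6a, had 6.36, 8.33 and 4.97 RPKM in glia, against 14.6, 14.5, 7.85 and 14.2 RPKM in GPC. The groups overlapped through GPC replicate 3, and the log2 change of -1.01 ± 0.25 (edgeR adjusted p = 0.0073) was -1.20 without that library. Plxnd1, the receptor for Sema3e, rose to 11.0 ± 1.72 RPKM in glia against 3.35 ± 0.421 RPKM in GPC. Plxna4, Plxnc1 and Plxna3 rose by 0.92, 0.78 and 0.50 on the log2 scale, and Plxna1 did not pass (-0.15 ± 0.08), though it did without GPC replicate 3 (-0.20, edgeR adjusted p = 0.0145).

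Neuropilins changed little. Nrp1, the co-receptor of Sema3a, had 6.39, 8.45 and 5.81 RPKM in glia, against 5.46, 5.72, 5.76 and 5.53 RPKM in GPC. Glia libraries lay above all GPC libraries, but the log2 change of 0.24 ± 0.11 did not pass (edgeR adjusted p = 0.0773). It was 0.09 without glia replicate 2 (0.346), and passed at 0.35 without glia replicate 3 (0.0193) and at 0.29 with upper-quartile scaling (0.0395). Nrp2, the co-receptor of Sema3f, rose by 0.40 ± 0.11 on the log2 scale with overlapping groups, at 5.78 ± 0.640 RPKM in glia and 4.57 ± 0.630 RPKM in GPC.

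EphA receptors, which bind the lipid-anchored ephrin-A ligands, held the largest change of the whole set. Epha3 had 17.3, 17.3 and 13.96 RPKM in glia, against 0.459, 0.615, 1.11 and 0.630 RPKM in GPC. It rose 21.1-fold, with the lowest glia library far above the highest GPC library (log2 change 4.40 ± 0.22, edgeR adjusted p = 1.49e-07; 4.77 without GPC replicate 3). Epha5, a receptor of neural map formation, had 10.5, 11.5 and 9.80 RPKM in glia, against 17.8, 20.7, 18.2 and 18.4 RPKM in GPC. It fell 1.81-fold in all glia libraries (log2 change -0.86 ± 0.08, edgeR adjusted p = 4.78e-06). Epha3 thus held 37.5% of the family's summed RPKM in glia and 2.57% in GPC, and Epha5 24.7% in glia and 67.9% in GPC, each the highest member in every library of its group.

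Epha2, a receptor for ephrin-A1, was low throughout, with 0.387, 0.741 and 0.360 RPKM in glia, against 1.16, 1.46, 1.14 and 1.25 RPKM in GPC. It was lower in every glia library (log2 change -1.49 ± 0.24, edgeR adjusted p = 0.000276). Epha4, which binds ephrins of both classes, and Epha7 rose by 1.14 ± 0.10 and 1.06 ± 0.15 on the log2 scale. Epha1, Epha6, Epha8 and Epha10 had too few reads for the test, with 32, 0, 43 and 21 reads over the glia libraries and 22, 1, 9 and 8 over the GPC libraries. With no filter on low counts, Epha1, Epha8 and Epha10 passed as rising (log2 changes 1.03, 2.70 and 1.83), at levels of at most 0.511 RPKM in any library.

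Of the EphB receptors, partners of the transmembrane ephrin-B ligands, 2 rose and 3 fell, beside 35.2% of all genes in each direction. Their sum was 80.1 ± 5.23 RPKM in glia and 84.7 ± 3.89 RPKM in GPC. Ephb1 had 32.9, 26.6 and 31.6 RPKM in glia, against 8.78, 9.84, 18.2 and 9.32 RPKM in GPC. No glia library overlapped GPC, though GPC replicate 3 lay between the other GPC libraries and glia. The log2 change was 1.35 ± 0.26 (edgeR adjusted p = 0.00204) and 1.68 without that library. Ephb2 had 19.1, 18.0 and 17.1 RPKM in glia, against 36.2, 32.9, 27.9 and 35.2 RPKM in GPC. Ephb4, known as the receptor of ephrin-B2 on veins, had 7.63, 7.02 and 6.99 RPKM in glia, against 13.0, 11.3, 12.9 and 12.6 RPKM in GPC. These receptors fell together in all glia libraries, by -0.90 ± 0.09 for Ephb2 and -0.81 ± 0.08 for Ephb4 on the log2 scale (edgeR adjusted p = 1.17e-05 and 8.61e-06). Ephb3 fell by 0.43 on the log2 scale, and Ephb6, whose kinase domain is inactive, rose to 4.59 ± 0.377 RPKM in glia against 1.41 ± 0.242 RPKM in GPC. Ephb1 led the family in 3 of 3 glia libraries with 37.8% of its summed RPKM, and Ephb2 in 3 of 4 GPC libraries with 39.2%, Ephb3 being highest in GPC replicate 3.

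Among the ephrins, the ligands of these receptors, the ephrin-A family summed to 30.4 ± 2.29 RPKM in glia and 30.5 ± 3.55 RPKM in GPC. In this family 2 members rose, 2 fell and 1 did not pass, beside 35.2% of all genes in each direction. Efna1 had 4.53, 4.98 and 4.84 RPKM in glia, against 0.994, 1.24, 0.734 and 1.48 RPKM in GPC. It rose 4.27-fold with no overlap (log2 change 2.09 ± 0.21, edgeR adjusted p = 1.04e-05). Efna2 had 8.84, 6.90 and 8.53 RPKM in glia, against 11.1, 9.32, 11.95 and 11.2 RPKM in GPC. It was slightly lower in each glia library (log2 change -0.44 ± 0.12, edgeR adjusted p = 0.00758). Efna5 rose by 0.78 ± 0.25 on the log2 scale, Efna4 changed by -0.36 ± 0.10, and Efna3 did not pass (0.04 ± 0.25). Without glia replicate 2 Efna5 did not pass (edgeR adjusted p = 0.0548), and without GPC replicate 3 Efna3 did, at 0.36 (0.0306). Efna1, Efna3 and Efna4 follow one another with no other protein-coding gene between them in the RefSeq annotation.

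Ephrin-B ligands summed to 62.9 ± 6.81 RPKM in glia and 24.1 ± 3.73 RPKM in GPC, mostly through Efnb3, a midline repellent of the mouse spinal cord. Efnb3 had 46.8, 37.4 and 51.0 RPKM in glia, against 8.18, 7.44, 9.41 and 6.82 RPKM in GPC. It rose 5.53-fold with the groups far apart (log2 change 2.47 ± 0.13, edgeR adjusted p = 1.88e-07) and held 71.4% of the family's summed RPKM in glia and 33.1% in GPC. Efnb1 had 14.9, 13.9 and 13.9 RPKM in glia, against 13.6, 11.0, 17.3 and 12.4 RPKM in GPC, overlapping, and led the family in GPC with 56.1%. Efnb2 rose modestly, to 3.55 ± 0.343 RPKM in glia against 2.55 ± 0.163 RPKM in GPC (log2 change 0.43 ± 0.11).

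**Figure D3:**
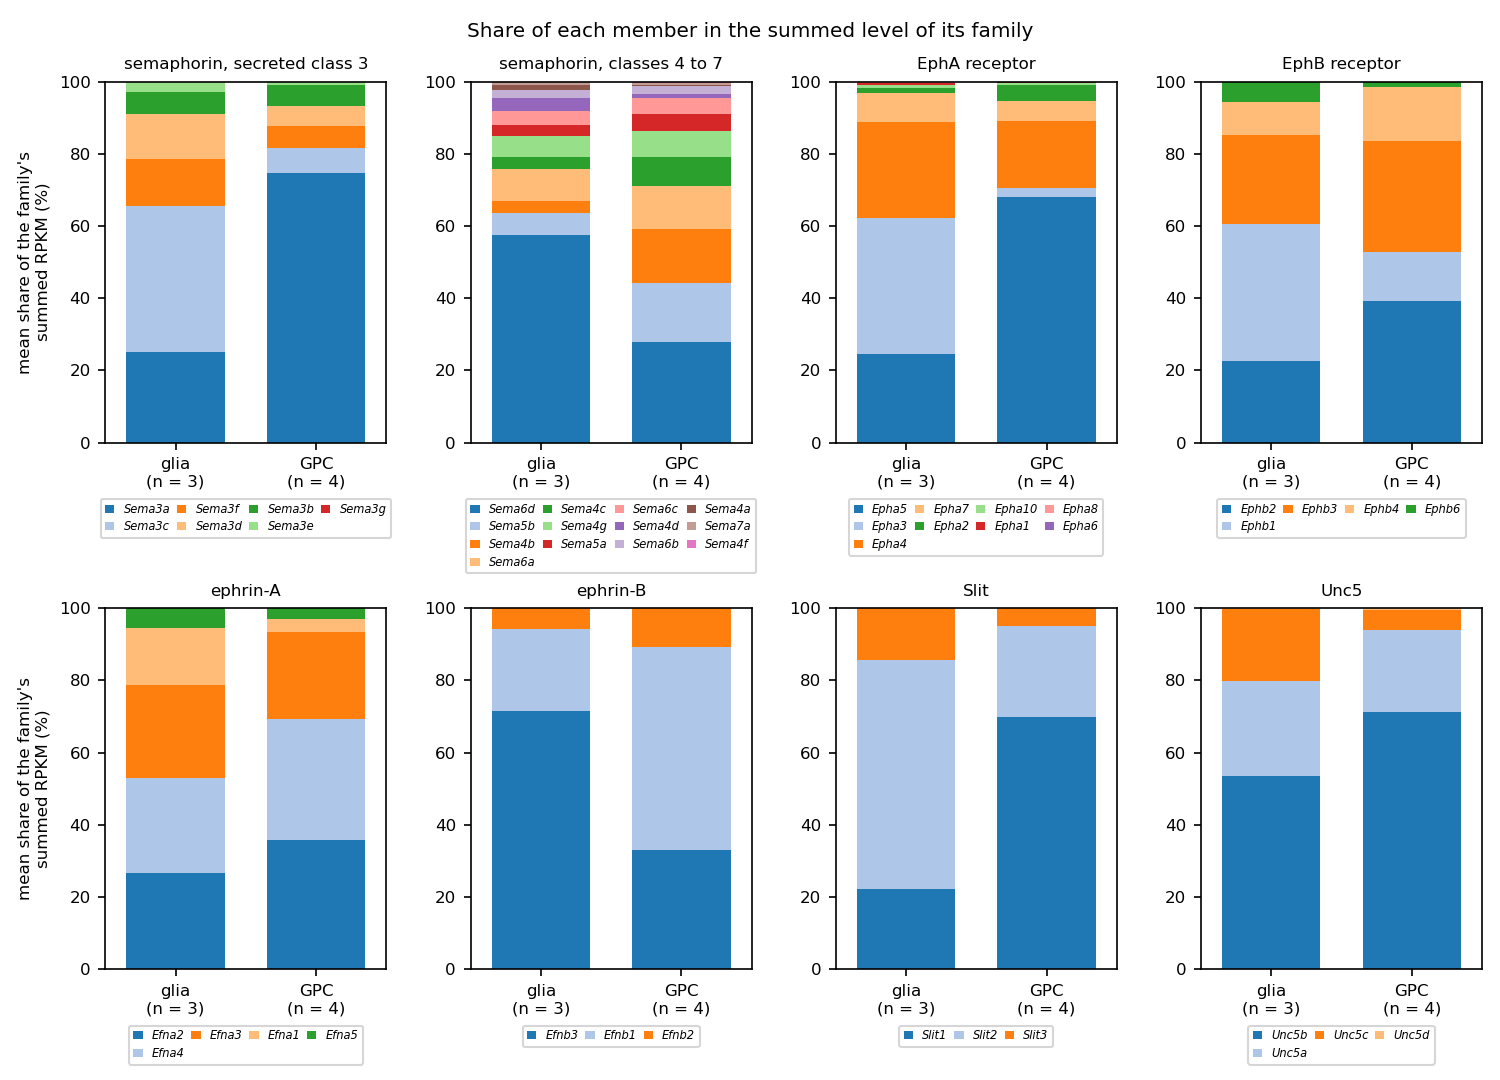
Mean share of each member in its family's summed RPKM (vertical axis, percent), with glia (n = 3) left of GPC (n = 4) in each of 8 families. The highest segment differs between the groups for class 3 semaphorins, EphA, EphB, ephrin-B and Slit, as with Epha3 at 37.5% in glia and 2.57% in GPC.

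The Slits switched as well. Slit1 had 1.49, 1.22 and 1.41 RPKM in glia, against 6.21, 6.49, 6.83 and 6.81 RPKM in GPC. It fell 4.80-fold with no overlap, the largest fall of the members tested (log2 change -2.26 ± 0.10, edgeR adjusted p = 4.12e-08). Slit2 rose to 4.04 ± 0.824 RPKM in glia against 2.36 ± 0.0835 RPKM in GPC, and held 63.5% of the Slit sum in glia and 25.1% in GPC, where Slit1 held 22.2% in glia and 69.9% in GPC. Slit3 stayed low and overlapped, at 0.922 ± 0.285 RPKM in glia and 0.473 ± 0.133 RPKM in GPC (log2 change 0.84 ± 0.27, edgeR adjusted p = 0.0176), and its call ended without glia replicate 1 (0.0598) or glia replicate 2 (0.0641).

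None of the 3 tested Robo receptors rose and 2 fell, beside 35.2% of all genes in each direction. Robo1, the most abundant Slit receptor, had 17.1, 20.8 and 15.8 RPKM in glia, against 15.1, 17.8, 22.1 and 18.6 RPKM in GPC. The groups overlapped and the log2 change of -0.08 ± 0.13 did not pass. Robo3, which lets commissural axons cross the midline, had 0.216, 0.246 and 0.226 RPKM in glia, against 0.792, 0.471, 1.09 and 0.573 RPKM in GPC. It was lower in each glia library at a low level (log2 change -1.72 ± 0.33, edgeR adjusted p = 0.000953). Robo2 fell by 0.45 on the log2 scale, and Robo4, known from endothelium, had 4 reads in glia and 6 in GPC.

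Netrins fell in sum, to 69.1 ± 2.48 RPKM in glia against 114.6 ± 11.2 RPKM in GPC. Ntn1, the secreted cue of the floor plate, had 60.0, 57.3 and 56.3 RPKM in glia, against 106, 104, 84.3 and 104 RPKM in GPC. Ntn4, a netrin of basement membranes, had 6.01, 5.32 and 6.03 RPKM in glia, against 11.6, 12.7, 9.33 and 11.4 RPKM in GPC. Both were lower in all glia libraries, and GPC replicate 3 was the lowest GPC library for each, with log2 changes of -0.81 ± 0.09 for Ntn1 and -0.97 ± 0.12 for Ntn4 (edgeR adjusted p = 1.33e-05 and 3.92e-05). Ntn3 rose by 0.50 ± 0.10 on the log2 scale, and Ntn5 had 21 reads in glia and 25 in GPC and was not tested.

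Among the netrin receptors Dcc and 2 of 3 tested Unc5 genes rose, beside 35.2% of all genes. Unc5c, a repulsive netrin receptor, had 2.36, 2.89 and 2.13 RPKM in glia, against 0.476, 0.567, 0.420 and 0.609 RPKM in GPC. It rose 4.64-fold without overlap (log2 change 2.22 ± 0.15, edgeR adjusted p = 6.27e-07). Dcc, the attractive receptor, had 4.30, 5.62 and 3.84 RPKM in glia, against 2.40, 2.13, 3.26 and 2.46 RPKM in GPC. It was higher in every glia library (log2 change 0.78 ± 0.16, edgeR adjusted p = 0.00192). Unc5b, the most abundant Unc5 receptor, had 7.36, 5.16 and 7.86 RPKM in glia, against 6.05, 6.41, 8.59 and 6.59 RPKM in GPC, overlapping and not passing (log2 change -0.04 ± 0.17). Unc5a rose by 0.57 ± 0.16 on the log2 scale, a call that ended without glia replicate 3 (edgeR adjusted p = 0.0562), and Unc5d had 9 reads in glia and 27 in GPC.

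Beyond the members, the cytoplasmic effectors and adaptors that guidance receptors use had 19 of 55 tested rising, 21 falling and a median log2 change of 0.04, beside 35.2% of all genes in each direction and a median of 0.00. Ngef, which encodes the exchange factor ephexin that binds EphA4, stood at 38.4 ± 4.92 RPKM in glia and 4.86 ± 0.476 RPKM in GPC (log2 change 2.95 ± 0.11, edgeR adjusted p = 1.26e-08). Ablim1, which encodes an actin-binding LIM protein, rose by 2.17 (log2), and the Rac effector kinase Pak3 by 1.56. Vav3, a Rac exchange factor recruited by activated Eph receptors, had the largest fall, at 2.16 ± 0.0251 RPKM in glia and 29.2 ± 6.39 RPKM in GPC (log2 change -3.66 ± 0.20, edgeR adjusted p = 3.49e-07). The plexin-linked oxidoreductases Mical1 and Mical2 changed by -1.41 and -1.28, and the Rac GTPase-activating protein gene Chn2 by -1.26. Of 39 other cues and receptors tested, 24 rose and 9 fell, with a median of 0.72, beside the same 35.2% in each direction and median of 0.00 over all genes. Met, the receptor for hepatocyte growth factor, and Cxcl12, a chemokine that attracts neural precursors, led with log2 changes of 4.88 ± 0.20 and 4.57 ± 0.19, followed by the netrin-G gene Ntng1 (2.98) and Islr2 (2.62). The falls were led by the L1-family adhesion gene Chl1 (-2.33 ± 0.35), Dscam (-0.81), the integrin gene Itgb1 (-0.77) and the Wnt receptor gene Ryk (-0.55).

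SOX9 and SOX3, related factors of glial and neural progenitors, had peaks assigned by the authors to 22 of the 69 members (31.9%; 11.3% of all genes in the table). SOX9 had 26 peaks at 18 members (26.1%; 8.95% of all genes) and SOX3 18 peaks at 13 members (18.8%; 4.37% of all genes). Both factors had a peak at Sema6a, Plxna2, Plxna4, Epha3, Epha5, Epha7, Efna5, Efnb2 and Robo1. SOX9 alone had one at Sema3d, Sema4a, Sema4f, Sema6d, Ephb1, Efnb1, Ntn4, Unc5d and Dcc, and SOX3 alone at Nrp2, Epha4, Epha6 and Robo2. Of the 9 EphA genes 5 had a SOX3 peak, Epha3 to Epha7, and no Slit gene had a peak of either factor. Peaks were listed once per factor, without a list per sample, so binding has no replicate check.

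Peaks at members were far from start sites. The median distance between SOX9 peaks and the assigned start was 208 kb, against 45.2 kb over all SOX9 peaks, and 92.6 kb for SOX3, against 53.6 kb over all SOX3 peaks. Of the 26 SOX9 peaks 8 lay beyond 500 kb (30.8%; 5.88% of all SOX9 peaks), and of the 18 SOX3 peaks 4 did (22.2%; 5.27% of all SOX3 peaks). The 8 SOX9 peaks stand at 6 separate locations, since those at Sema6d and upstream of Epha5 are pairs that overlap each other. Counting peaks within 100 kb alone, each factor had 9 members (13.0%; 6.7% of all genes for SOX9 and 3.09% for SOX3). Gene length and the size of the intergenic space around these genes were not tested. Efna5, with 4 SOX3 and 2 SOX9 peaks, had distances that imply start positions 274610 bp apart, so its distances are uncertain.

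Overlapping SOX9 and SOX3 peaks were seen at 2 members. In Plxna2 a SOX9 peak at chr1:196455280-196455880 (mm9), 9556 bp downstream of the start, contained a SOX3 peak at chr1:196455483-196455728. Upstream of Epha5 by 823 kb, a SOX3 peak at chr5:85668679-85669114 overlapped a pair of SOX9 peaks that overlap each other. In all, 3 of 26 SOX9 peaks at members overlapped a SOX3 peak by at least 1 bp (11.5%; 10.8% of all SOX9 peaks). An NFIA peak overlapped 6 of the 26 (23.1%; 28.4% of all SOX9 peaks), at Sema6a, Plxna4, Epha3, Epha5, Ntn4 and Robo1. Of the 18 SOX3 peaks at members, 2 overlapped a SOX9 peak (11.1%; 21.9% of all SOX3 peaks) and 1, at Plxna2, an NFIA peak (5.56%; 7.39% of all SOX3 peaks). The Epha3 peak shared with NFIA is at chr16:64130533-64131133, 267 kb upstream of the start.

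**Figure D4:**
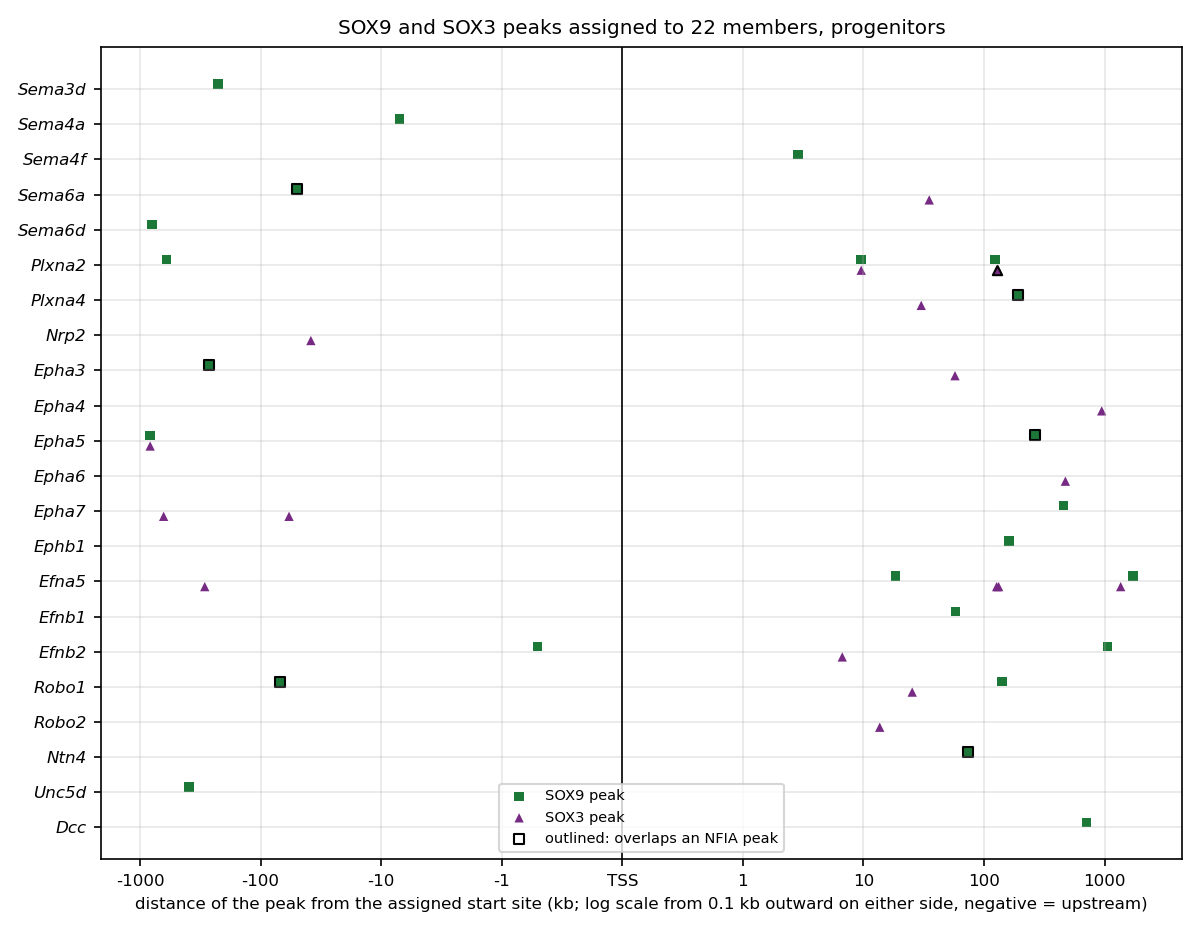
Distance of each SOX9 (square) and SOX3 (triangle) peak from the start site assigned by the authors, in kb on a log scale to either side, for the 22 members with a peak; black outlines mark overlap with an NFIA peak. Most points lie beyond 10 kb, the nearest is the SOX9 peak 0.503 kb upstream of Efnb2, and overlapping SOX9 peaks (Sema6d, Epha5) print as 1 square.

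Rising and falling members were found both with and without an assigned peak. Of the 20 tested members with a peak of either factor, 13 rose (65.0%), 4 fell and 3 did not pass, and of the 41 tested members with none, 22 rose (53.7%), 14 fell and 5 did not pass. Over all genes tested, 38.6% of those with a peak rose and 35.2% fell, and 34.7% of those with none rose and 35.2% fell. The difference between these shares was not tested. Members with both factors included the strongest riser Epha3 and the fallers Epha5 and Plxna2. Several large changes had no assigned peak, among them Sema3c, Plxnb3, Sema4d, Efnb3 and Slit1.

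The nearest peak was the SOX9 peak at Efnb2, centred 503 bp upstream of the start with its edges 203 and 803 bp away (chr8:8660976-8661576, mm9), and SOX3 had a peak 6673 bp downstream of the same start (chr8:8653958-8654242). Sema4f had a SOX9 peak 2868 bp downstream (chr6:82886596-82887196) and Sema4a 7054 bp upstream (chr3:88266415-88267015). Promoter sequences were read from RefSeq (GRCm38.p6, the 250 bases before the start) for the 59 members with an entry, and searched on both strands for the SOX words ACAATG and ACAAAG and for the full NFI palindrome, TTGGC and GCCAA with 5 bases of any kind between them. Words were counted separately, and the SOX words cannot share a site. ACAATG stood in 6 member promoters (10.2%; 11.0% of all 27025 promoters), ACAAAG in 6 (10.2%; 16.5% of all promoters) and the NFI palindrome in 0 of 59 (0.0407% of all promoters). Plxnb3 and Sema3a were the members with both SOX words. The promoters below show the member with the nearest peak, Efnb2 (chr8:8661243-8661492, minus strand), which held none of these words, and the members with both, the riser Plxnb3 (chrX:73756853-73757102, plus strand) and the faller Sema3a (chr5:13396534-13396783, plus strand). By its edges, 203 and 803 bp from the start, most of the Efnb2 SOX9 peak lay outside the 250 bases and was not searched. Capitals mark a SOX word, read as CATTGT or CTTTGT where it is on the other strand, and all are written 5′ to 3′ toward the gene:
Efnb2: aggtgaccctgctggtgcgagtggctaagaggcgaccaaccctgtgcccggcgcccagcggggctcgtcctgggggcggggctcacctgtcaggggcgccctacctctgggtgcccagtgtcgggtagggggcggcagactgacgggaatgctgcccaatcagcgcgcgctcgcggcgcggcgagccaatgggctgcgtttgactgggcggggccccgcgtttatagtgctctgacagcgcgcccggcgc
Plxnb3: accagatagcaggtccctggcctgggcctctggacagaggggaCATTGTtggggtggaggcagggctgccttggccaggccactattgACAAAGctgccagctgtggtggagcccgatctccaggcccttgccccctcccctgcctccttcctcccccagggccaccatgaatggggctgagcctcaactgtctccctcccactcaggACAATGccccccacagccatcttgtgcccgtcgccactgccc
Sema3a: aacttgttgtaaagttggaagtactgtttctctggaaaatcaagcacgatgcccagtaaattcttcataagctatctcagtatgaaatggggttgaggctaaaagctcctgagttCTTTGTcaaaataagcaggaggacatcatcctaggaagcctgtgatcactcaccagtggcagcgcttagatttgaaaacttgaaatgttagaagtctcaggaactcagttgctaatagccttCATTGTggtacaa
Counted from the first base of the word back from the start, Plxnb3 held ACAATG at 207 and 42 bases, the first on the opposite strand, and ACAAAG at 162 bases. Sema3a held both words on the opposite strand, ACAAAG at 135 bases and ACAATG at 13 bases. Plxnb3 and Sema3a had no peak of either factor assigned. The GC content was 72.0% for the Efnb2 promoter, 65.2% for Plxnb3 and 40.8% for Sema3a, against a median of 64.8% over the 59 members and 52.0% over all promoters. Peak positions are in mm9 and promoters in GRCm38.p6, so the coordinates were not set against each other.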

How the data were processed

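The members, pathway lists and marker lists were chosen with earlier results of these data known. Read counts per gene were deposited by the authors as raw whole numbers, beside RPKM values computed by the authors per library and gene length, per the file headers. Counts served for tests and RPKM for levels. The build was mm9 and peaks were called with MACS and MACS2, per the submitters' processing notes. No source used here gives the aligner, counter or use of strand. Overlapping or antisense genes therefore cannot be told apart. The SOX3 and SOX9 lists hold the authors' assigned gene and distance per peak, and the NFIA list a score per peak as deposited, whose meaning is not stated.

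Counts of glia against GPC were fitted in R 4.3.3 with edgeR 4.0.16 (TMM, default filterByExpr, robust quasi-likelihood), adjusted by Benjamini-Hochberg over all genes. The fit was also run on simulated counts with the same dispersion for every gene and no deviating library, a simpler setting than these data. SE is the log2 change over the square root of F. Values per library are given for the 12 largest rises and falls and for the highest member of each family, and for each pathway list the 4 largest changes in either direction are named, except for 1 that is not reported here. Symbols were matched exactly and no member's symbol was repeated or joined. Alternatives were DESeq2 1.42.0, other scalings and filters, a replicate block, each library left out, and other distances and overlaps for peaks. The 2 input and 3 H3K27Ac samples were not analysed here.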

Additional observations from a re-analysis of the deposited data

Results flagged for a closer look

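In 9 of the 61 tested members 1 GPC library lay far from the other GPC libraries by Dixon's test for 4 samples. Chance flags about 1 in 20 groups, and the share of all genes flagged is not given here. GPC replicate 3 stood apart over all genes, so the flags are not independent and cannot be read as a trait of the members. In 8 of the 9 the library was GPC replicate 3, on the side of the glia in 7 of them. It was high for Ephb1 at 18.2 RPKM (8.78 to 9.84 in the others), Plxnc1 at 5.80 (3.16 to 3.56), Plxnd1 at 3.98 (3.09 to 3.18), Sema3f at 1.74 (1.11 to 1.16) and Sema7a at 1.38 (0.912 to 0.945). It was low for Plxna2 at 7.85 RPKM (14.2 to 14.6 in the others) and Ntn1 at 84.3 (104 to 106), all on the side of the glia, and low for Sema6d at 34.7 (42.5 to 42.8), away from the glia. The remaining case was Sema6c in GPC replicate 2, low at 5.98 RPKM (6.46 to 6.55 in the others). These members kept their direction and their call without GPC replicate 3.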

How the results depend on the processing

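Over every alternative 34 to 38 members rose and 17 to 19 fell, and the median log2 change was 0.46 to 0.60. Over all genes tested the median ran from -0.0039 to 0.047. With no filter on low counts, 38 of 69 members rose, beside 5199 of 17895 genes. Without GPC replicate 3, 36 of 61 members rose, beside 5159 of 13550 genes. Leaving out each library in turn gave 34 to 36 rising, 18 to 19 falling and medians of 0.46 to 0.60. Of the 61 tested members 50 kept their direction and their side of the threshold under every alternative that tested them. The filter of at least 50 counts in 3 libraries tested 58 members. The log2 change turned round for 4 members that did not pass in the main analysis: leaving out each library gave -0.087 to 0.36 for Efna3, -0.058 to 0.19 for Efnb1, -0.19 to 0.022 for Robo1 and -0.16 to 0.11 for Unc5b, and upper-quartile scaling gave 0.0063 for Unc5b. The call ended for Sema4g (edgeR adjusted p up to 0.0846), Efna5 (0.0548 without glia replicate 2), Slit3 (0.0598 and 0.0641 without glia replicates 1 and 2) and Unc5a (0.0562 without glia replicate 3), each at the same direction. The cause was not tested.

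Deviations of same-numbered samples correlated at -0.020, 0.14 and 0.068, and of the glia libraries only replicate 2 matched its own number best. With so few libraries these values cannot decide whether replicate numbers pair the libraries. The replicate block gave 35 rising and 18 falling members and a median of 0.48, with Sema5a passing and Slit3 not. Members with a SOX9 peak came to 9 within 100 kb (6.7% of all genes had one) and 4 within 10 kb, and with a SOX3 peak to 2 within 10 kb. By peaks, 15.4% of SOX9 peaks at members lay within 10 kb, against 21.2% of all SOX9 peaks. For SOX3 it was 11.1% at members, against 15.9% of all SOX3 peaks. Of the 9 SOX9 peaks at members within 100 kb, 1 overlapped a SOX3 peak and 3 an NFIA peak. The shares over all SOX9 peaks within 100 kb are not given here. The 8 untested members had at most 43 reads in glia and 27 in GPC, and at most 0.511 RPKM in any library. Whether depth or low expression set this was not tested.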
